A study of Mus musculus with 50 samples.

Results

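This report describes 3940 stretches of mouse genome that carried an ATAC-seq peak in adult spinal motor neurons and in motor neurons grown from mouse stem cells for 28 days, and that carried none at the early stages of either. ATAC-seq finds open chromatin as the places where a transposase can cut in its adapters. The starting list was the 163235 peak intervals of P21 replicate 1. An interval was kept when it overlapped, by at least 1 bp, a peak of P21 replicate 2, of both P56 libraries, of both 2yr libraries and of both untreated DIV28 libraries, and overlapped no peak of any E10.5, E13.5, P4 or DIV0 library. The 3940 gained regions are 2.41% of the starting list. The regions were chosen by the presence or absence of peaks in those 16 libraries, which is therefore no finding, whereas the P13, DIV7 and TTX peak lists, the sequence, the position and the RNA were not used to choose them.

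The study followed motor neurons from embryo to old age and in culture, with 22 ATAC-seq libraries (2 per group) and 27 RNA-seq libraries used here (2 or 3 per group). E10.5 libraries came from whole GFP-positive cells sorted from pooled HB9-GFP embryos, bred from HB9-GFP males and wild-type C57BL/6J females. From E13.5 to 2yr, nuclei were taken from spinal cords of pooled Chat-Cre;SUN1-GFP mice of both sexes, in which the nuclear envelope of Chat-expressing cells is tagged, sorted for ATAC-seq and affinity purified for RNA-seq. The RNA-seq used brachial and lumbar cord and the ATAC-seq thoracic cord as well, so the assays did not sample the same segments. Chat-Cre also tags visceral motor neurons and cholinergic interneurons, so these libraries are not of skeletal motor neurons alone. For RNA-seq the paper reports less pure nuclei at E13.5 and P4, with some contamination from blood vessels, than at later ages. The culture groups were made from 1 mouse embryonic stem cell line with the same tag, at DIV0 before plating and at DIV7 and DIV28 on primary cortical astrocytes, untreated or, in the TTX group, with 1 µM tetrodotoxin, a blocker of voltage-gated sodium channels, for the whole culture. All RNA after E10.5 is nuclear. The p-values below measure the spread between libraries, and in bulk libraries fewer cells of a type and less RNA per cell cannot be told apart.

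Distal elements such as enhancers are opened by transcription factors that recognise short sequence motifs, and the set of open elements changes as a neuron matures. AP-1 is a dimer of Fos and Jun family proteins that binds the letters TGANTCA (N is any base), is induced by activity, growth factors and stress, and takes part in opening chromatin in many cell types. NFI factors bind pairs of the core TTGGCA and are known for roles in later stages of neuronal and glial differentiation.

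The sequences of 8 gained regions are shown because, after the exclusions below, they ranked highest in all adult and DIV28 libraries together, by the lowest percentile of −log10 p that each reached over the P21 to 2yr and DIV28 libraries outside the starting list. That percentile lay between 87.8 and 92.5 for the 8. Regions that overlapped an annotated exon were left out. Each window holds the P21 replicate 1 summit with 100 bases on either side, plus strand of mm10, in lower case with every AP-1 match in capitals.
*Diras1*, chr10:81027394-81027594: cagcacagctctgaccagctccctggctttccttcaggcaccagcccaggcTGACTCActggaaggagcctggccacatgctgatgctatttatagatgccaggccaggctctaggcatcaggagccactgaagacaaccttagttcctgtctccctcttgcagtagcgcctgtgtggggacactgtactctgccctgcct
*Olfm1*, chr2:28244776-28244976: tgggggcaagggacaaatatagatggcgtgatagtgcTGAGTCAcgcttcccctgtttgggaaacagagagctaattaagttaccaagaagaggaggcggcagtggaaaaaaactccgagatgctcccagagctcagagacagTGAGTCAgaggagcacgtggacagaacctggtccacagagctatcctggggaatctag
*Cnbp*, chr6:87868955-87869155: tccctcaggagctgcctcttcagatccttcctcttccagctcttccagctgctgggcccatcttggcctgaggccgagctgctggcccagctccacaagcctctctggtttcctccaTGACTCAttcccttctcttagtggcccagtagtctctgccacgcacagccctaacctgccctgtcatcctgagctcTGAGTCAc
*1110002E22Rik*, chr3:138054015-138054215: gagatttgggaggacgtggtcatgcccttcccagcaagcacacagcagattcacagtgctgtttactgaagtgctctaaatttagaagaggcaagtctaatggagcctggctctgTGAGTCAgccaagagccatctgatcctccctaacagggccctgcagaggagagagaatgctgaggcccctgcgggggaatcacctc
*Erc2*, chr14:27862386-27862586: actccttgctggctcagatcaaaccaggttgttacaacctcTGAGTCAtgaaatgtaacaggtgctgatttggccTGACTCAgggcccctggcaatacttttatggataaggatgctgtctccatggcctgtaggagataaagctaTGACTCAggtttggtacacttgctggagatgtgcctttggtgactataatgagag
*Nalcn*, chr14:123312512-123312712: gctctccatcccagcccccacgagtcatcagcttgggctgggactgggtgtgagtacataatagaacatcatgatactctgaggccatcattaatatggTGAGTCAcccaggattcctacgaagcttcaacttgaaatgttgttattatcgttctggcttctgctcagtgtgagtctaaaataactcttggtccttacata
*Rgs2*, chr1:144023327-144023527: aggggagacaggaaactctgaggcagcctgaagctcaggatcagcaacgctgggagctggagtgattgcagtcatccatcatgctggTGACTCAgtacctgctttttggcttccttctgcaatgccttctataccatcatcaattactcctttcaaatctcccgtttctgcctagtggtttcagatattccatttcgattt
*Tnr*, chr1:159889484-159889684: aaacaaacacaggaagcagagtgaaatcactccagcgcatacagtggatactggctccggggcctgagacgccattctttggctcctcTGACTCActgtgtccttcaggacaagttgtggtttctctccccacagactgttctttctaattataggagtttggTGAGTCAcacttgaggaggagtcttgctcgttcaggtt

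All 8 windows held at least 1 AP-1 match and none held the NFI core TTGGCA. The *Erc2* window held 3 AP-1 matches, the *Olfm1*, *Cnbp* and *Tnr* windows 2 each and the other 4 windows 1 each. The names are those of the nearest protein-coding transcription start sites (TSS). The *Erc2*, *Nalcn* and *Tnr* windows lay in an intron of the named gene, 10646, 58463 and 39187 bp from the start site, and the *1110002E22Rik* window in an intron of *Gm5105*. The other 4 were intergenic, between 1832 bp (*Diras1*) and 39217 bp (*Olfm1*) from the start site. *Erc2* encodes a scaffold of the presynaptic active zone, *Nalcn* the sodium leak channel that sets the resting potential, *Tnr* the matrix protein tenascin-R, *Rgs2* a regulator of G protein signalling, *Diras1* a small GTPase and *Cnbp* a nucleic acid-binding zinc finger protein.

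The *Nalcn* region had a fold enrichment over the local background of 6.37 and 8.97 in the P13 libraries, 10.8 and 12.2 at P21, 11.1 and 9.15 at P56, 9.93 and 9.65 at 2yr, 7.06 and 12.7 at DIV7, 18.1 and 9.09 at DIV28, and 16.6 and 7.36 with TTX. It was thus already a peak in both libraries of P13 and of DIV7. The *Erc2* region had no peak in P13 replicate 1 or DIV7 replicate 1, 5.14 in P13 replicate 2, 8.05 and 10.6 at P21, 12.5 and 11 at P56, 7.43 and 8.13 at 2yr, 4.87 in DIV7 replicate 2, 11.3 and 8.5 at DIV28, and 8.38 and 6.08 with TTX. The *Diras1* region stood at 5.41 and 7.08 at P13, 7.05 and 8.51 at P21, 9.73 and 7.88 at P56, 7.86 and 6.67 at 2yr, 3.84 and 4.2 at DIV7, 11.7 and 7.55 at DIV28, and 8.99 and 5.41 with TTX. In these 3 regions DIV28 replicate 1, a library with 224328 intervals, stood above DIV28 replicate 2, with 152667.

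Each condition of the rule removed part of the list. Of the 163235 intervals, 80211 overlapped a peak of every P21, P56 and 2yr library, and 11491 of these had none at E10.5, E13.5 or P4. Both DIV28 libraries had a peak at 4166 of the 11491, and 3940 of the 4166 had none at DIV0. Just inside the limit, 59 gained regions overlapped a required peak by under 50 bp, and 90 had an excluded peak within 100 bp although none overlapped. Just outside it, 2952 intervals failed because of 1 excluded library only, most often P4 replicate 1 (1458), and 3767 because of 1 missing required library only, most often DIV28 replicate 2 (1649). The median gap from a gained region to the nearest excluded peak was 2212.5 bp. A total of 80386 (E10.5 replicate 1) to 224328 (DIV28 replicate 1) intervals were called per library, the depth behind them is unknown, and its part in absent peaks was not tested. Without DIV28 replicate 2 the rule kept 5589 regions. For comparison, 2 other sets were taken from the same starting list. The adult regions without culture peak (5163) met the in vivo part of the rule with no peak at DIV0 or DIV28, and the regions open throughout (25715) had a peak in every library of E13.5, P4, P21, P56, 2yr, DIV0 and DIV28.

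**Figure D1:**
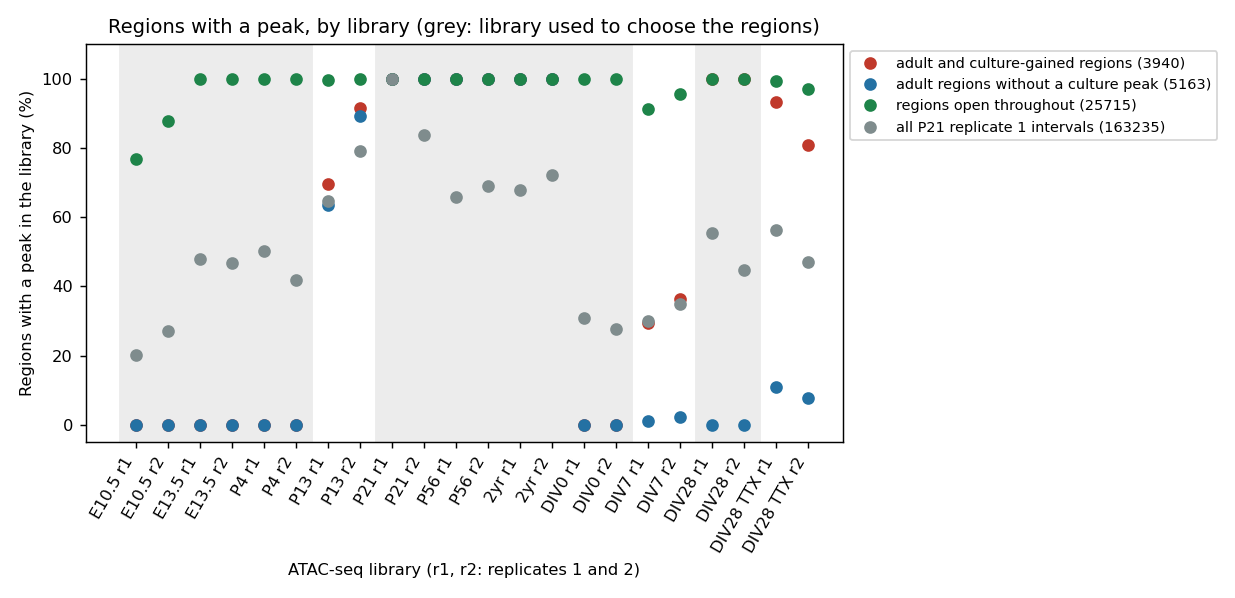
Percent of regions with a peak in each ATAC-seq library, for the gained regions and the comparison sets. Values at 0% or 100% in libraries used by the rule are fixed by it, and the P13, DIV7 and TTX libraries are the ones to read, where the gained regions stand between 29.3% (DIV7 replicate 1) and 93.1% (TTX replicate 1).

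Peaks were found at most gained regions in the P13 libraries and at fewer in the DIV7 libraries. The shares with a peak in both libraries were near those of all intervals, whereas fewer gained regions than intervals lacked a P13 peak. Both P13 libraries had a peak at 2676 of the 3940 gained regions (67.9%), 1 of them at 999 (25.4%) and neither at 265 (6.73%). Adult regions without culture peak had a peak in both P13 libraries at 61.4%, and all intervals at 61.7%. Neither P13 library had one at 8.97% of adult regions without culture peak and 17.9% of all intervals. Both DIV7 libraries had a peak at 894 gained regions (22.7%), 1 at 799 (20.3%) and neither at 2247 (57%). The adult regions without culture peak had a peak in both DIV7 libraries at 0.136%, and all intervals at 25.4%, with none in 60.4% of all intervals. The most frequent pattern, in 1594 regions (40.5%), was a peak in both P13 libraries and in no DIV7 library, and the opposite pattern was found in 80 (2.03%). The DIV7 libraries had fewer intervals (95519 and 122751) than those of P13 (133513 and 171219), and no test was run on these shares.

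Cultures that were silenced with TTX carried most of the gained regions. Both TTX libraries had a peak at 3103 regions (78.8%), 1 at 650 (16.5%) and neither at 187 (4.75%). Among all intervals with a peak in both untreated DIV28 libraries, 86.4% also had one in both TTX libraries, so the share of the gained regions was the lower. The shares rose with peak rank in both sets. With both sets split into 4 classes of percentile in DIV28 replicate 2, at limits that divide the gained regions evenly, both TTX libraries had a peak at 50.7%, 75.4%, 90.7% and 98.3% of the gained regions and at 63.6%, 83.3%, 93.5% and 98.8% of all intervals, from the lowest to the highest class. The choice of the untreated libraries by the rule bears on this comparison. With both TTX lists required in place of the untreated lists, an exchange made after seeing the data, the rule kept 3801 regions, of which 81.6% had a peak in both untreated libraries, against 83.5% of all intervals with both TTX peaks.

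The median fold enrichment was 2.86 and 3.2 in the P13 libraries, over the regions with a peak there, 3.51 and 4.21 at P21, 3.92 and 3.55 at P56 and 3.38 and 3.36 at 2yr. It was 4.43 and 5.28 at DIV7, 8.22 and 5.43 at DIV28 and 7.11 and 5.18 with TTX. Fold enrichment is a ratio within 1 library and its scale differs between libraries, so percentiles of −log10 p among all peaks of the same library are given beside it. The median percentile was 59.8 and 67.4 at P21 and 76.3 and 62.8 at DIV28, libraries in which the rule itself required a peak.

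**Figure D2:**
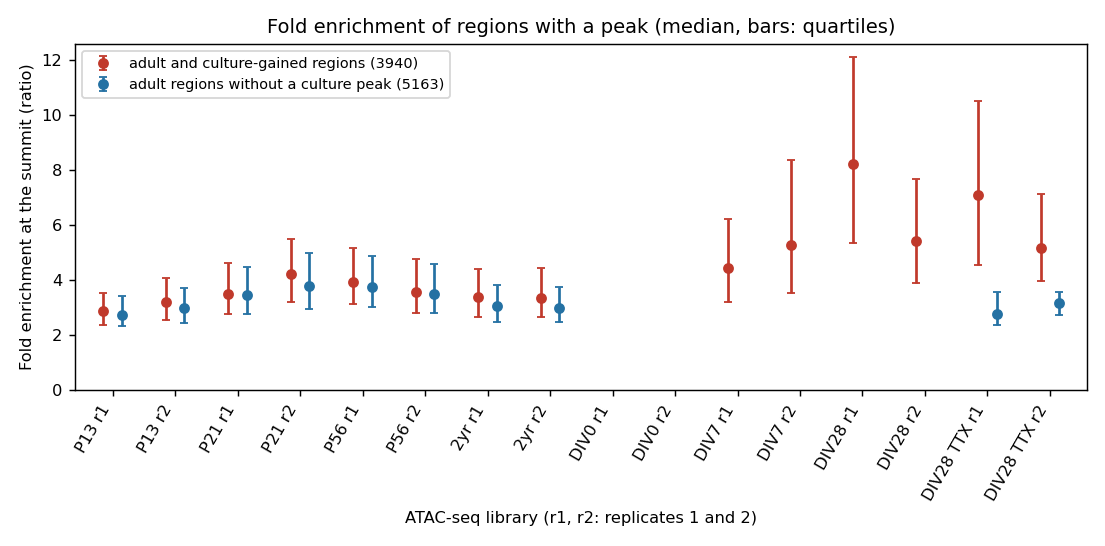
Fold enrichment at the summit (a ratio) of the gained regions in each library with a peak, as median and the range from the 25th to the 75th percentile. The medians lie between 2.86 and 4.21 in vivo and between 4.43 and 8.22 in culture.

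The gained regions were distal. Their summits lay over 2 kb from the nearest TSS in 3488 of 3940 (88.5%), against 89.8% of adult regions without culture peak, 41.4% of regions open throughout and 79.4% of all intervals. The median distance to a TSS was 13738.5 bp, against 18862, 470 and 11091 bp. Summits fell in introns in 65.2%, between genes in 28.7% and in exons in 6.09%, against 57%, 31.7% and 11.2% of all intervals. The median width was 454 bp, close to 417 bp for adult regions without culture peak and below 873 bp for regions open throughout, and the median GC content of the windows around the summit was 46.3%, 45.3% and 57.7%, with 47.3% for all intervals. The regions were scattered. The median spacing between neighbours was 142091 bp and 221 (5.61%) lay within 10 kb of another.

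An AP-1 match was more frequent in the gained regions than in the other adult sets. Within 100 bp of the summit, on either strand, 1899 of 3940 (48.2%) held TGANTCA. The share was 5.73% in adult regions without culture peak, 6.68% in regions open throughout and 11.8% in all intervals. With C or G in the middle, the form that binds AP-1 best, the shares were 42.7%, 3.23%, 4.77% and 8.45%. At least 2 matches were found in 338 gained regions (8.58%). Among regions over 2 kb from a TSS alone, 48.9% of the gained regions held a match against 13% of all intervals. The matches lay at the summit, with 42.1, 42.1, 40.6, 44.2 and 39.1 per 1000 regions in the 10-bp bins from 20 bp before to 20 bp after it and 4.06 to 6.35 per 1000 at 240 to 250 bp. In adult regions without culture peak the bins at the summit held 1.94 to 3.68 per 1000. The match was no trait of the gained regions alone. With DIV28 replicate 1 as the starting list, regions gained in culture held one in 61.5% with a peak in every adult library. The share was 58.4% with a peak in some adult libraries and 61.9% with none.

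**Figure D3:**
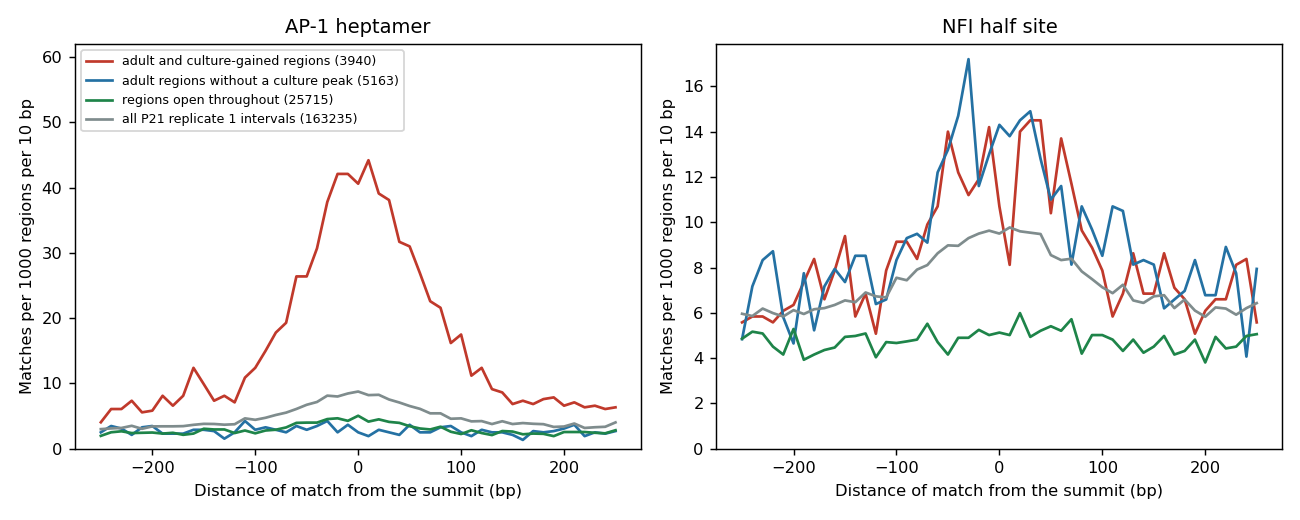
Motif matches per 1000 regions in 10-bp bins against distance from the P21 replicate 1 summit in bp. The AP-1 curve of the gained regions rises to 44.2 per 1000 near the summit, whereas that of the adult regions without culture peak stays near 3.

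The share with an AP-1 match rose with peak rank and with presence in culture. In 4 groups of rising percentile it was 18.9%, 41.4%, 56.6% and 76.1% by DIV28 replicate 1 and 23%, 40.1%, 55.7% and 74% by DIV28 replicate 2, and with rank in the P21 libraries it was 38.7%, 48.8%, 48.8% and 57.2% (replicate 1) and 32.2%, 44.2%, 54.1% and 62.6% (replicate 2). Regions with a peak in both DIV7 libraries held a match in 72.1%, those with none at DIV7 in 37%. Regions with both TTX peaks held one in 52.9%, those with 1 in 32.3% and those with none in 25.7%. In vivo the order was the reverse, with 43.6% of the regions already open in both P13 libraries and 68.7% of those open in neither. Rank was not held fixed in these splits. Presence in both TTX libraries itself rose from 50.7% to 98.3% over the 4 groups by DIV28 replicate 2, so the TTX split does not separate silencing from rank. In its own test of accessibility, the paper found AP-1 and Mef2 as the top motifs of peaks reduced by TTX. In all intervals of the starting list with a peak in P21 replicate 2 and both DIV28 libraries the share was 19.2%. Leaving DIV28 replicate 2 out of the rule, a choice made after seeing the data, gave 38.7%.

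Of the 16 motifs searched, AP-1 had the largest difference in percentage points between the gained regions and all intervals. The NFI core TTGGCA was found in 770 (19.5%), close to 20.7% of adult regions without culture peak and above 9.31% of regions open throughout and 15.5% of all intervals. It occurred together with an AP-1 match in 346 regions (8.78%), and 1617 regions (41%) held neither, against 74.5% of adult regions without culture peak. The MEF2 motif was found in 5.3%, 4.63% and 1.54% of the 3 sets and the palindromic steroid receptor motif in 1.45%, 2.29% and 0.362%. The homeodomain core TAATTA was found in 3.78% of gained regions and 5.93% of adult regions without culture peak. CTCF (1.9%), SP/KLF (GGGGCGGGG, 0.152%) and the cyclic AMP response element TGACGTCA (0.305%) were found in 5.35%, 1.3% and 0.569% of all intervals. Over 2 kb from a TSS the shares were 1.89%, 0.143% and 0.315% in gained regions and 5.41%, 0.265% and 0.365% in all intervals. The E-box CAGCTG (17.9%), the Hox/Pbx motif TGATTNAT (6.09%), the SOX motif ACAATGG (2.49%), the Onecut motif TATTGAT (1.42%), the Ebf motif (0.838%) and the ERR motif TCAAGGTCA (0.254%) stood close to all intervals, with 16.1%, 5.34%, 2.43%, 1.9%, 0.852% and 0.459%. The full NFI palindrome and the RFX motif matched no gained region, and 0.0484% and 0.126% of all intervals. A match is a string of letters and says nothing of binding.

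**Figure D4:**
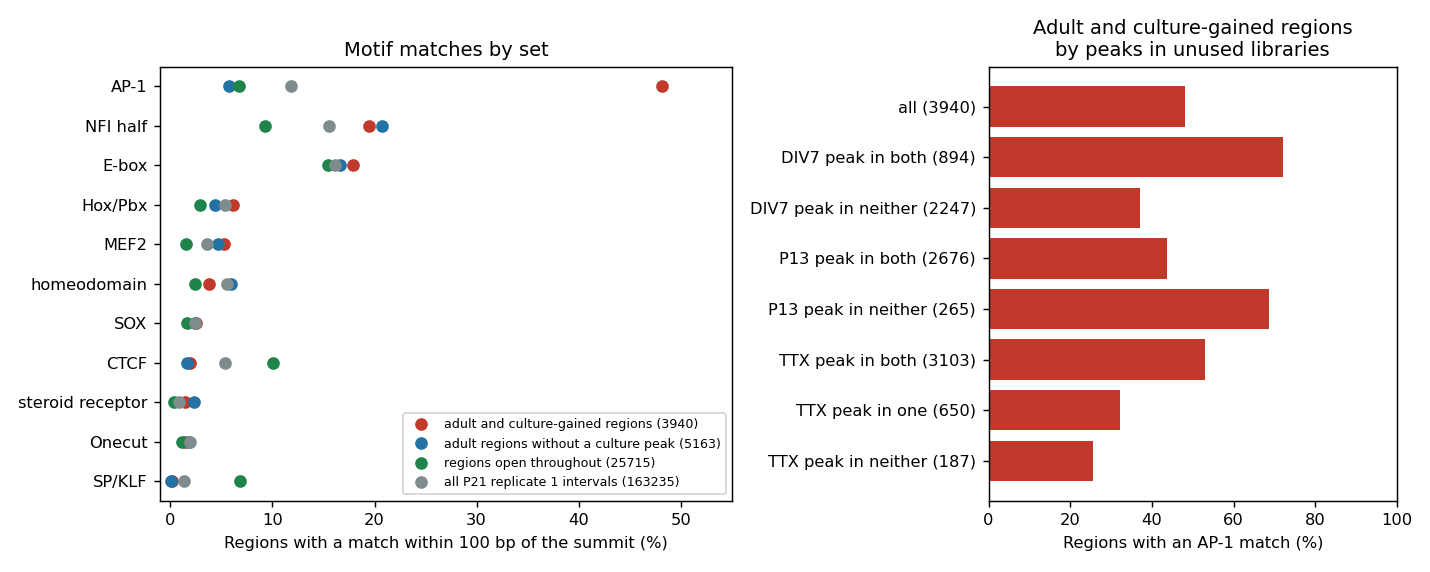
Percent of regions with at least 1 match of each motif within 100 bp of the summit, for the gained regions and the comparison sets. AP-1 stands at 48.2% in the gained regions and between 5.73% and 11.8% in the other sets, and the NFI core at 19.5% and 20.7% in both adult sets.

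RNA of the factors that bind these letters moved differently in the 2 systems. RNA was tested with edgeR's quasi-likelihood test, and a gene was called when its unadjusted p lay under 0.001 and its level differed 2-fold or more, with Benjamini-Hochberg adjusted p beside it. *Fosl2*, a Fos family member, rose in both, from 22.6, 21.9 and 35.1 normalised counts at P4 to 76, 69.3 and 62.5 at P21 (log2 fold change 1.39, adjusted p = 0.000227) and from 22.3 and 27.8 at DIV0 to 398 and 580 at DIV28 (4.32, adjusted p = 3.06e-05). *Jun* fell in vivo, from 570, 487 and 524 to 186, 202 and 204 (-1.41, adjusted p = 0.000293), and rose in culture, from 1127 and 700 to 3060 and 3957 (1.97, adjusted p = 0.00113). *Junb* rose in culture from 5.26 and 4.63 to 89.9 and 89.1 (4.17, adjusted p = 0.000366), and *Jund* fell in vivo (-1.70, adjusted p = 0.000337). Summed over the 7 Fos and Jun genes, normalised counts lay at 663 to 801 at P4 and 343 to 370 at P21, and at 914 to 1397 at DIV0, 3819 to 4754 at DIV28 and 2039 to 3246 with TTX. *Jun* alone made up most of the culture sums, with 3060 and 3957 at DIV28 and 2552, 2767 and 1778 with TTX (-0.59, adjusted p = 0.719). None of the 4 Fos and Jun genes tested in culture was called with TTX. With TTX, *Fosl2* stood at 217, 300 and 159 (-1.14, adjusted p = 0.259) and was not called. None of the 7 genes was the nearest gene of a gained region. The NFI genes *Nfia*, *Nfib*, *Nfic* and *Nfix* had log2 fold changes between -0.61 and 0.21 from P4 to P21, not called. In culture *Nfia* fell from 690 and 815 at DIV0 to 95.8 and 87.4 at DIV28 (-3.01), *Nfib* fell (-2.72) and *Nfic* rose from 57.8 and 58.7 to 257 and 312 (2.32). Of the MEF2 genes, *Mef2c* fell in culture (-3.85, adjusted p = 0.00453). The steroid receptors *Nr3c1* (3.21), *Nr3c2* (3.67) and *Pgr* (6.79) rose in culture.

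Genes near the gained regions were more often higher at the later stage than the average gene, except between P4 and P21. Within 100 kb of a TSS lay 3033 of the regions (77%), nearest to 2320 protein-coding genes, of which 1845 had 1 region, 326 had 2 and 149 had 3 or more. Of the 1925 of these genes tested in vivo, 106 (5.51%) were higher at P21 than at P4, against 5.0% of all 12645 protein-coding genes tested, and 168 (8.73%) were lower, against 12.7%. Against E13.5, 691 (35.9%) were higher at P21 and 320 (16.6%) lower, with 23.5% and 29.9% of all genes. The median log2 change of P21 over E13.5 was 0.55 for these genes and -0.14 for all. Markers of other cells moved over the same interval, with summed normalised counts of 8576 to 15423 at E13.5 and 29.6 to 62.2 at P21 for 5 endothelial markers and 360 to 431 and 6521 to 8773 for 8 oligodendrocyte markers, and their part in these counts was not tested. In culture 1809 were tested, 308 (17%) were higher at DIV28 than at DIV0, against 11.8% of all 11032 genes, and 123 (6.8%) were lower, against 5.83%. Leaving out DIV0 replicate 2 lowered the higher count from 308 to 188 and DIV0 replicate 1 to 192, and the lower count of 123 fell to 59 without DIV28 replicate 2 and to at most 73 without any other library. The shares over all genes with a library left out are not given.

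Genes near adult regions without culture peak gave shares of similar size. They were higher at P21 than at E13.5 in 35.9% and higher at DIV28 than at DIV0 in 15.5%. Genes of both sets were long, with median spans of 85.8 kb and 91.1 kb against 27.4 kb for all genes tested, and among all genes the share higher at P21 than at E13.5 was 16.4%, 24% and 39.3% for spans under 20 kb, of 20 to 100 kb and over 100 kb. In these classes, formed after seeing the data, genes near gained regions were higher in 21.4%, 27.9% and 47.9%. Genes near gained regions were higher at DIV28 than at DIV0 in 16.6%, 14.9% and 19.2% of the classes in the same order, against 9.65%, 11.2% and 17.9% of all genes. Genes with at least 2 gained regions were higher at P21 than at E13.5 in 46.2% and at DIV28 in 19.6%. By presence of an AP-1 match at the region, 36.3% of genes were higher at P21 than at E13.5 with a match and 38.5% without, and 17.8% and 16.5% were higher at DIV28. These shares are given without a test.

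Of the 12 genes with the most gained regions, *Erc2* led with 9, of 105 intervals nearest to it. *Dlgap1*, a postsynaptic scaffold, and *Rbfox3*, the splicing factor known as NeuN, had 7 each. *Cux1*, *D430041D05Rik*, *Prickle2*, *Nav2*, *Prune2*, *Grik1*, *Gria1* and *Dpp6* had 6 each and *Sgms1* 5. In *Cux1*, *D430041D05Rik*, *Nav2* and *Dpp6* 4 of the 6 held an AP-1 match, and in *Gria1* and *Rbfox3* 1 did. *Prune2* rose in every comparison except with TTX, with 5264 to 6064 normalised counts at P4, 16358 to 17258 at P21, 847 and 819 at DIV0 and 12477 and 12684 at DIV28 (log2 fold changes 1.60 ± 0.264 (SE) over P4 and 3.95 ± 0.354 over DIV0, adjusted p = 0.000124 and 1.72e-05). *Gria1*, an AMPA receptor subunit, rose in culture from 3.94 and 12.4 to 534 and 790 (6.40 ± 0.494, adjusted p = 7.17e-06), with -0.82 at P21 over P4, not called. The kainate receptor subunit *Grik1* fell from 1042 to 1347 at P4 to 286 to 345 at P21 (-1.90 ± 0.313, adjusted p = 0.000116) and rose from 90.7 and 100 at DIV0 to 588 and 420 at DIV28 (2.43 ± 0.392, adjusted p = 0.000708), the latter not called without DIV0 replicate 1. *Nav2*, *D430041D05Rik*, *Rbfox3*, *Dpp6* and *Prickle2* rose from E13.5 to P21 by log2 fold changes between 1.14 and 2.39, and *Dlgap1* by 2.75. *Prickle2*, the smallest of these changes, was not called without a filter on low counts (0.89) or with only these ages fitted (0.99). *Erc2*, *Cux1* and *Sgms1* were called in no comparison.

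Of the genes named with the printed sequences, *Nalcn* (2.95) and *Tnr* (3.04) rose from E13.5 to P21 on the log2 scale and *Rgs2* fell (-1.48). *Diras1* rose in culture from 32.9 and 21.6 to 216 and 264 normalised counts (3.16 ± 0.611, adjusted p = 0.00219). *Cnbp* fell from E13.5 to P21 (-2.09) and rose in culture (1.53). The culture calls of *Diras1* and *Cnbp* were lost without DIV0 replicate 1, DIV0 replicate 2 or DIV28 replicate 2. *Olfm1* and *Erc2* were not called and *1110002E22Rik* had too few counts to be tested.

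Some of the nearest genes were called in both systems. Of the 1792 nearest genes tested in both, 33 were higher at P21 than at P4 and at DIV28 than at DIV0, which is 37.5% of the 88 higher in vivo and 11.1% of the 297 higher in culture. In all genes these shares were 27.9% and 11.8%. A further 17 (0.949% of those tested in both) were lower in both, 35 (1.95%) lower in vivo and higher in culture, and 4 (0.223%) higher in vivo and lower in culture, against 1.41%, 1.62% and 0.102% of all genes.

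*Pik3r5*, a regulatory subunit of phosphoinositide 3-kinase on chromosome 11, had a gained region with an AP-1 match 55 bp from a TSS. Its shared rise was the largest when genes were ranked by the smaller of their log2 changes in vivo and in culture. Its normalised counts were 4.51, 0 and 0 at P4 and 49.3, 55.1 and 48.6 at P21, and 7.89 and 3.09 at DIV0, 249 and 354 at DIV28 and 33.7, 55.8 and 25.4 with TTX. No groups compared overlapped. Before P4 the counts were 37.6, 22.2 and 40.6 at E10.5, in whole cells, and 15.8 and 9.07 at E13.5. The log2 fold changes were 4.95 ± 0.601 in vivo and 5.75 ± 0.735 in culture (adjusted p = 4.96e-06 and 0.00016), and -2.96 ± 0.501 with TTX (adjusted p = 0.0646). The region had a fold enrichment of 3.38 and 3.02 at P21, 10.7 and 7.69 at DIV28 and 8.27 and 3.97 with TTX.

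*Spp1*, which encodes the secreted protein osteopontin, had gained regions at 8 and 38632 bp from its TSS. Its normalised counts went from 10.2, 17.5 and 20.1 at P4 to 125 and 152 at P13 and 78.8, 129 and 117 at P21 (2.76 ± 0.322, adjusted p = 3.09e-06). In culture they went from 1.31 and 0 at DIV0 to 177 and 152 at DIV7, 5683 and 7079 at DIV28, and 3856, 3508 and 1828 with TTX. The DIV0 libraries held 1 count together, which gives a ratio of 9541 with a 95% counting interval from 1712 to 376871. The region at the TSS had no peak in DIV7 replicate 1 and a fold enrichment of 3.96 in DIV7 replicate 2, 8.31 and 6.12 at DIV28 and 4.77 and 4.64 at P21.

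Other shared rises were *Coro6*, an actin-binding coronin (502, 330 and 320 to 1920, 1340 and 1269 in vivo, 7.89 and 4.63 to 197 and 191 in culture, log2 fold changes 1.98 and 4.94), whose region 994 bp away held the NFI core. *Cd55*, which protects cells from complement, went from 202, 167 and 241 to 999, 1185 and 902 and from 18.4 and 26.3 to 106 and 172 (2.34 and 2.68). *Ankrd35* went from 64.3, 72.3 and 56.5 to 559, 404 and 400 (2.82) and from 2.63 and 1.54 to 44.4 and 91.7, a ratio of 38.2 with a counting interval from 13 to 186. Both genes had a region with an AP-1 match, at 6989 and 589 bp. *Angptl2*, a secreted angiopoietin-like protein, went from 11.3, 13.2 and 8.78 to 115, 66.4 and 72.3 (2.92) and from 57.8 and 23.2 to 173 and 469 (3.0). Before P4 it stood at 105, 115 and 97.3 at E10.5 and 67.6 and 48.8 at E13.5. Its change from E13.5 to P21 was not called (0.71). *Ifi27* and *Ifitm10*, of interferon-induced families, had no count at DIV0 and were at least 14.3-fold and 20.9-fold higher at DIV28, against a floor of 3 counts, and rose at P21 by 2.38 and 1.89 on the log2 scale. In each of these genes every P21 library lay above every P4 library and every DIV28 library above every DIV0 library. Shared falls were the kinetochore gene *Knl1* (47.4, 55.9 and 38.9 to 0, 2.83 and 4.17 in vivo, 57.8 and 46.3 to 2.34 and 0.65 in culture) and the Golgi mannosidase *Man2a1* (402, 357 and 394 to 101, 103 and 111, and 709 and 709 to 136 and 101). The calls of *Pik3r5*, *Spp1*, *Coro6* and *Ifitm10* in both systems held with any 1 library left out. Those in culture were lost without DIV28 replicate 2 for *Angptl2*, *Ankrd35*, *Cd55*, *Knl1* and *Man2a1*, without DIV0 replicate 1 for *Ankrd35*, *Cd55* and *Knl1*, without DIV0 replicate 2 for *Angptl2*, *Ankrd35* and *Knl1* and without DIV28 replicate 1 for *Knl1*. *Ifi27* was not called in vivo without P21 replicate 1 or 3 or P4 replicate 2 or 3.

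**Figure D5:**
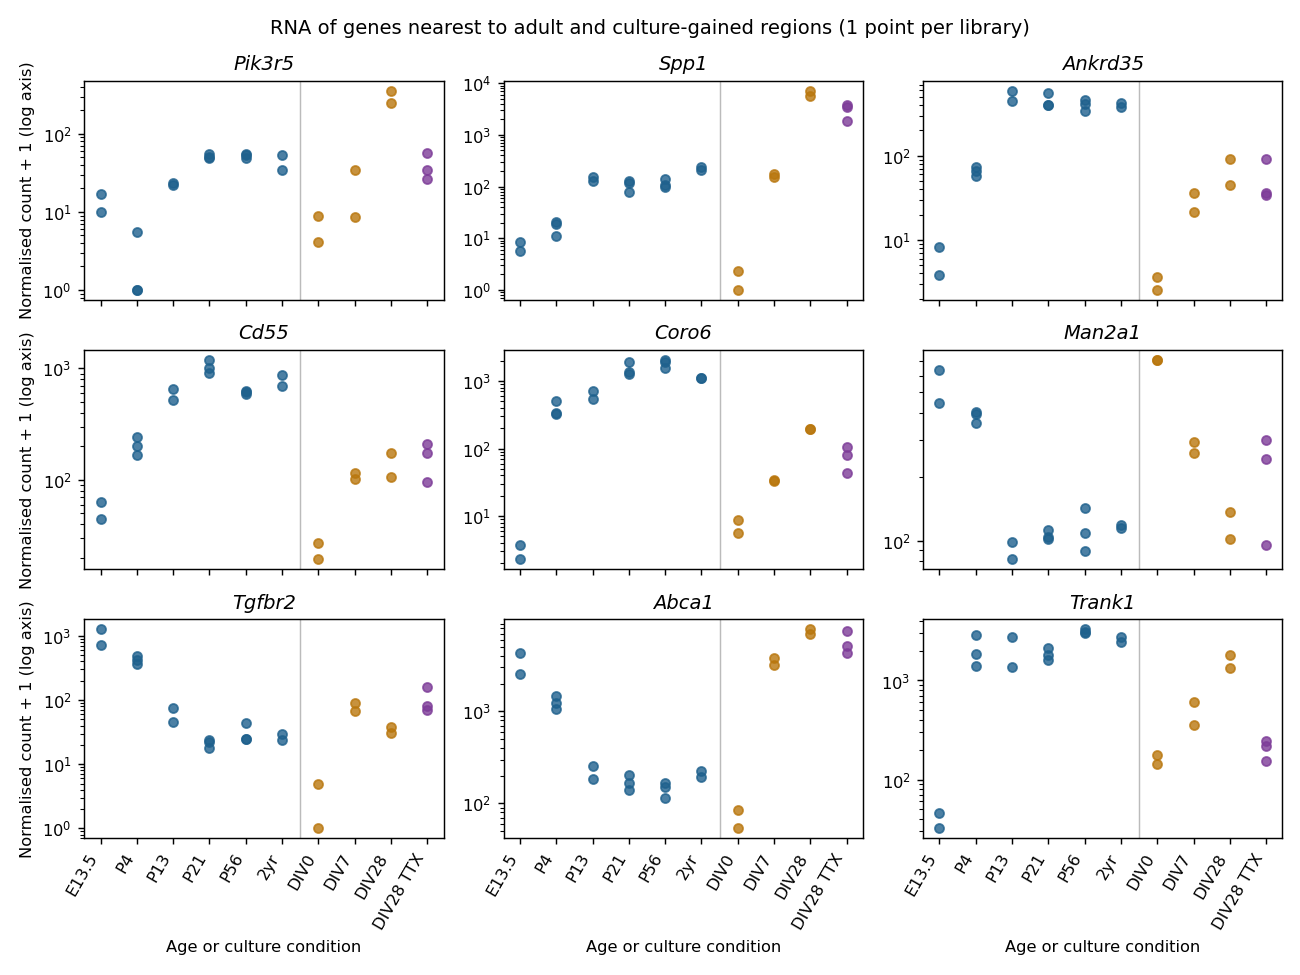
Normalised count plus 1 (log axis) of 9 named genes in each RNA library, in vivo from E13.5 to 2yr and in culture from DIV0 to DIV28 with TTX. *Pik3r5* and *Spp1* rise in both systems, and *Trank1* is lower with TTX. *Abca1* falls in vivo from 1476, 1227 and 1050 at P4 to 205, 165 and 139 at P21 and rises in culture to 6915 and 7777 at DIV28.

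The 5 genes with the largest opposite changes, by the same ranking on the smaller change, were *Tgfbr2*, *Tnc*, *Grin2c*, *Abca1* and *Ccdc80*. *Abca1*, a cholesterol transporter, fell from 1476, 1227 and 1050 at P4 to 205, 165 and 139 at P21 (-2.88 ± 0.256, adjusted p = 1.43e-07) and rose from 82.8 and 52.5 at DIV0 to 6915 and 7777 at DIV28 (6.78 ± 0.446, adjusted p = 3.34e-06). The TGF-beta receptor *Tgfbr2* fell from 476, 420 and 364 to 22.5, 17 and 20.8 and rose from 3.94 and 0 to 37.4 and 29.3. The matrix protein tenascin-C (*Tnc*) and the secreted *Ccdc80* showed the same pattern, and the NMDA receptor subunit *Grin2c* the opposite one (4.51, 4.38 and 8.78 to 66.1, 46.6 and 75.1 in vivo, 108 and 102 to 0 and 4.55 in culture). The culture call was lost without DIV28 replicate 2 for *Tgfbr2* and *Tnc*, without DIV28 replicate 1 for *Tgfbr2* and *Grin2c*, without DIV0 replicate 1 for *Tnc* and *Grin2c*, and without DIV0 replicate 2 for all 3, and *Grin2c* was not called by DESeq2. Markers of other cell types moved over the same interval. The summed normalised counts of 5 endothelial markers lay at 3908 to 5345 at P4 and 29.6 to 62.2 at P21, all 5 falling, and at 1.31 to 1.54 at DIV0 and 159 to 231 at DIV28, where *Cldn5* and *Tek* were at 0 and *Flt1* alone held 144 and 230. Those of 5 fibroblast markers lay at 203 to 413 at P4, 61.9 to 352 at P21, 6.57 to 10.8 at DIV0 and 199 to 310 at DIV28. Those of 8 oligodendrocyte markers lay at 2115 to 2786 at P4 and 6521 to 8773 at P21 and at 62.4 to 65.4 at DIV28, where *Mog*, *Mag*, *Mobp* and *Sox10* were at 0. Astrocyte markers lay at 3244 to 3955 at P4, 1782 to 2280 at P21, 419 to 579 at DIV0 and 587 to 713 at DIV28. The 6 motor neuron markers were present throughout, at 3323 to 4032 at P4, 3469 to 4034 at P21, 5283 to 6396 at DIV0 and 8291 to 9323 at DIV28, where *Prph* was higher and *Chat*, *Isl1* and *Mnx1* lower than at DIV0. Of all these markers, *Mbp*, *Cldn11* and *P2ry12* had 1 gained region each. The paper reports less pure RNA-seq nuclei at P4, with some contamination from blood vessels, than at P21. The part of other cells in these results was not tested.

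Gene families of synaptic receptors and channels held gained regions more often than the average gene. Of all intervals with a nearest gene within 100 kb, 2.35% were gained. The share was 4.83% for glutamate receptor genes (26 regions at 10 of 20 genes), 4.52% for GABA receptor genes (4 of 19 genes), 3.46% for voltage-gated calcium channel genes (25 regions at 11 of 26 genes), 3.01% for collagens (10 of 44 genes) and 2.52% for potassium channel genes (34 regions at 25 of 94 genes). It was 2.07% for solute carriers, 2% for zinc finger genes and 1.49% for cadherins.

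In the families below, the shares over all protein-coding genes to set beside the counts are the 23.5%, 5.0% and 11.8% called higher against E13.5, against P4 and in culture, and many of these genes are long. Of 23 potassium channel genes with a gained region tested in vivo, 18 rose from E13.5 to P21 and 4 from P4 to P21 (*Kcnab2*, *Kcnk9*, *Kcnh2* and *Kcna1*), and of 20 tested in culture 9 rose and *Kcnd3*, of the A-type current, fell (573 and 548 to 58.4 and 68.6, -3.10). *Kcna1*, a low-threshold delayed rectifier, went from 555, 553 and 728 at P4 to 1317, 1406 and 1348 at P21 and reached 127 and 232 at DIV28 (log2 fold changes 1.15 over P4 and 4.69 over DIV0, adjusted p = 5.14e-05 and 0.000171). The leak channel *Kcnk9* went from 1476, 1375 and 1855 to 4446, 4815 and 4595 and from 192 and 69.5 to 1564 and 1895 (1.56 and 3.75). Of 10 calcium channel genes, 9 rose from E13.5 to P21, and the L-type *Cacna1d* rose in culture from 55.2 and 52.5 to 829 and 875 (4.01, adjusted p = 4.5e-06), as did *Cacng5*, while the T-type *Cacna1h* fell from 1324 and 1098 to 325 and 189 (-2.21, adjusted p = 0.000855). Of 10 glutamate receptor genes, 7 rose from E13.5 to P21, *Grin2c* rose and *Grik1* and *Grik3* fell from P4 to P21, and in culture *Gria1*, *Grik1* and *Grik2* rose and *Grin2c* fell. Of 10 collagens, *Col18a1*, *Col4a1* and *Col4a2* fell from P4 to P21, and *Col24a1*, *Col4a1*, *Col4a2* and *Col6a3* rose in culture. *Col4a1*, of basement membranes, went from 3858, 3307 and 2777 to 826, 694 and 577 in vivo and from 43.4 and 26.3 to 1106 and 1392 in culture (-2.24 and 5.18), beside the endothelial and fibroblast sums above.

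TTX changed few of the nearest genes. Of the 1809 tested, 6 were higher (0.332%) and 13 lower (0.719%) with TTX than without, against 0.245% and 0.399% of all genes. With the shared replicate number of treated and untreated cultures as a block, the counts were 20 and 25. The shares over all genes under this setting and with a library left out are not given. These counts therefore do not show whether the nearest genes moved more than all genes. The higher count was 1 without DIV28 replicate 2 or TTX replicate 3 and 11 without TTX replicate 1, and the lower count was 4 without DIV28 replicate 2. The 8 astrocyte markers differed within the TTX group, with sums of 362 to 878 against 587 to 713 at DIV28. Replicate 3 held 182 counts of *Gfap*, 113 of *Aqp4* and 161 of *Slc1a3* against 15.2 and 6.5, 1.17 and 5.85, and 12.8 and 15.3 at DIV28. *Slc1a2* (177 against 164 and 147) and *Gja1* (43.2 against 29.2 and 25.4) were also higher in it. *Aldoc* (169 against 421 and 325) and *S100b* (5.08 against 42.1 and 24.4) were lower, and *Aldh1l1* (28 against 28 and 38) was not higher. *Chat* stood at 536 and 373 at DIV28 and 269, 160 and 104 with TTX (-1.38, adjusted p = 0.229, not called). Their part in the TTX results was not tested. *Trank1* fell from 1335 and 1814 normalised counts at DIV28 to 152, 246 and 216 with TTX (-2.96 ± 0.308, adjusted p = 0.00474), close to 141 and 176 at DIV0. *Glra1*, the glycine receptor subunit of inhibitory synapses, fell from 94.6 and 75.4 to 19.5, 13.1 and 11.4 (-2.56 ± 0.402, adjusted p = 0.0459). Both calls held without any 1 library. The SNARE regulator *Cplx2* fell from 193 and 361 to 53.2, 57.5 and 26.7 (-2.60 ± 0.389, adjusted p = 0.0345) and the zinc finger gene *Hic2* rose from 28 and 20.8 to 72.7, 97.4 and 82.6 (1.80 ± 0.305, adjusted p = 0.0646). Without DIV28 replicate 2 the changes of *Cplx2*, *Pik3r5* and *Hic2* were -2.05, -2.67 and 1.59 and were not called. *Hic2* was also not called with only the treated and untreated libraries fitted (1.81). The gained regions nearest to these genes kept a peak with TTX. The *Trank1* region had a fold enrichment of 7.21 and 4.48 untreated and 3.84 and 5.18 with TTX, the *Glra1* region 15 and 7.99 against 10.9 and 8.33, the *Cplx2* region 9.62 and 5.72 against 4.54 and 2.78, and the *Hic2* region 11.1 and 2.05 against 3.98 and 2.37.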

How the data were processed

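The authors trimmed reads with Trim Galore. ATAC-seq reads were mapped to mm10 with BWA mem, SAMtools dropped duplicates, and MACS2 2.2.7.1 called peaks in each library separately at a p limit of 0.01. The deposited peak lists give −log10 p and the fold enrichment of each summit, which is a ratio over local background. For RNA-seq the authors aligned with STAR 2.5.2b and quantified with RSEM 1.3.0, and what they deposited are expected counts, not normalised. Libraries summed to between 2704682 and 21823500 counts, and the reads behind the peak lists are unknown. The MACS2 call also named a read shift and extension. The RNA kit was stranded and RSEM ran with default settings, so reads of overlapping antisense genes may not be told apart.

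Of several summits in an interval, that with the highest −log10 p was used, and overlaps and motifs were computed with Python 3.11.15, pysam 0.24.0 and the mm10 sequence, checked against bedtools 2.31.1. Start sites are those of the GENCODE annotation, with GRCm38 as the build. No test was run on peak sets, which are given as shares. After rounding of expected counts, a gene was tested if all replicates of some group reached 5 CPM, and edgeR 4.0.16 (TMM factors, quasi-likelihood test, R 4.3.3) was fitted over 18 in vivo or 9 in vitro libraries, 1 coefficient per group. The limits, an unadjusted p under 0.001 and 2-fold, are those of the study. Normalised counts are expected counts over median-of-ratios size factors, ± is a standard error, and counting intervals (95%) and floors cover counting error only. In counts simulated for P21 against P4 over 13638 genes, 50 of 50 genes raised 4-fold and 23 of 50 raised 2-fold were called, with 5 unchanged genes. For DIV28 against DIV0 over 11967 genes, 46 and 5 of 50 were called, with 25 unchanged genes, and for TTX against DIV28 over 12015 genes 48 and 6, with 15. DESeq2 1.42.0 was an alternative. An RNA library of unclear label (1 in number) was not used.

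Named genes were the 12 with the most gained regions, the nearest genes of the 8 printed windows, the 10 with the largest shared and the 5 with the largest opposite changes, the 5 with the lowest p for TTX, and fixed lists and families. Shared and opposite changes were ranked by the smaller absolute log2 change of P21 over P4 and DIV28 over DIV0. Members, lists and families were chosen with earlier results of these data known. Untreated and TTX-treated cultures share replicate numbers, but the labels do not say that same-numbered cultures were grown in parallel. Deviations from the group mean correlated between same-numbered libraries (r of 0.36 and 0.30 over 16166 genes). Crossed numbers gave -0.36 and -0.30, which follows from having only 2 untreated libraries. Replicate 2 was the deepest library of both groups, with 21823500 (DIV28) and 12204869 (TTX) counts, and the part of depth was not tested.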

Additional observations from a re-analysis of the deposited data

Results flagged for a closer look

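In 5 genes nearest to gained regions, every P21 library lay on one side of every P4 library while every DIV28 library lay on the opposite side of every DIV0 library. Log2 fold changes of P21 over P4 were -4.38 for *Tgfbr2*, -3.83 for *Tnc*, -2.88 for *Abca1*, -2.67 for *Ccdc80* and 3.41 for *Grin2c*. In culture *Tnc* (4.78) and *Abca1* (6.78) were higher at DIV28 and *Grin2c* (-5.07) lower, and from the few counts at DIV0 the ratio was 14.6 for *Tgfbr2* (95% counting interval from 4.87 to 71.6) and 51.9 for *Ccdc80* (from 17.7 to 253). The 5 genes were named for this pattern, and the difference between the systems itself was not tested.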

How the results depend on the processing

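Other settings moved sizes, and the AP-1 share stayed above that of all intervals where both are given. With 50% of the interval covered, 2434 regions were kept, of which 62.7%, 20.9% and 76.6% had a peak in both P13, DIV7 and TTX libraries. At a limit of 5 kb 75.5% were distal. The AP-1 share was 55% for peaks with −log10 p of at least 5 (all intervals 13%), 50.4% from P21 replicate 2, 45.5% with TTX lists in place of untreated ones, 32.4% within 50 bp (all 7.09%) and 62.4% within 250 bp (all 20.8%), and that of the NFI core 11.1% and 34.7% at these distances. With 1 library left out of the rule, 3970 to 5589 regions were kept, and without 1 P4, DIV0 or DIV28 library the AP-1 share was 38.7% to 48%.

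With a TSS within 20 kb, 89 genes were lower at P21 than at P4, 458 higher and 196 lower than at E13.5, and 185 higher and 73 lower at DIV28 than at DIV0. With the gene holding the summit, 198 were lower at P21 than at E13.5. At an adjusted p under 0.05, 468 of 1809 were higher and 214 lower at DIV28. Of 10704 genes near any interval of the starting list, 2138 were higher and 1298 lower. The share lower was then not above that of genes near any interval, unlike in the main setting. The other counts here are given without the share over all genes. With 1 library left out, 89 to 99 genes were higher and 139 to 166 lower at P21 than at P4, 597 to 728 and 274 to 344 against E13.5, 188 to 263 and 59 to 73 at DIV28, and 1 to 11 and 4 to 14 with TTX. For TTX, the counts were 28 and 30 without a filter, 3 and 6 for peaks with −log10 p of at least 5, and 0 and 3 at an adjusted p under 0.05 in edgeR (72 and 84 at an unadjusted p under 0.05). DESeq2 gave 21 higher, and only these groups 2. Causes were not tested.

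With the replicate block, 20 genes were higher and 25 lower with TTX. In the other comparisons same-numbered libraries did not deviate together (r from -0.03 to 0.09). The block gave 101 and 184 genes for P21 against P4, 477 and 270 for P21 against E13.5 and 380 and 168 for DIV28 against DIV0. The shares over all genes with the block are not given, so these counts say nothing particular of the nearest genes.

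Of 742 values of single genes under an alternative, 685 kept their call and direction, 57 lost the call and none changed sign. Culture groups had 2 or 3 RNA libraries, so single libraries decided many calls.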

Other observations

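Taken from the culture side, the set was not alone in its AP-1 matches. Of the 224328 intervals of DIV28 replicate 1, a starting list chosen after seeing the data, those gained over DIV0, shared with DIV28 replicate 2 and absent at E10.5, E13.5 and P4 were split by adult presence. With a peak in every adult library (3861) 61.5% held an AP-1 match, with a peak in some adult libraries (15251) 58.4% and with none (36450) 61.9%, against 38.8% of all intervals. The NFI core was found in 18.5%, 14.4% and 12% of the sets in the same order, against 14.2% of all. Both TTX libraries had a peak at 79.3%, 68.7% and 58.2%, and both P13 libraries at 67.8%, 16.6% and 0.357%. The median fold enrichment in DIV28 replicate 1 was 8.18, 6.53 and 6.1.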
